A study of Mus musculus with 6 samples.

Results

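The comparison set cortical neurons held at 42 °C for 15 min against neurons kept at 37 °C, and asked which RNAs already stood apart at the earliest time sampled. Genes entered by a rule that looks only at level: of 55538 genes in the deposited table, the 12002 with a mean value of at least 5 over the 4 libraries compared were described. The rule did not use the difference between the groups, but a low gene can pass it through the group where it is high. Plekhs1, Cited1 and Gm10616, named below, passed through the 15 min libraries, and Snora31, Snord118, Snhg9 and Anpep through control. For such genes the listing as higher or lower is partly set by their entry. Next to that floor, Top1mt with a mean of 5.0019 was kept and Gm21917 with a mean of 4.9995 was not; 325 genes kept had means between 5 and 5.5 while 413 genes left out had means between 4.5 and 5.

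The cells were primary neurons from the cortex of C57Bl/6 mouse embryos, with no other genetic change named, at day 14.5. All dishes had been rested for 2 h at 37 °C in medium with 10% serum. The heated group then spent 15 min in an incubator at 42 °C, and the control spent 60 min at 37 °C. A second heated group spent 60 min at 42 °C and is given here only to follow the genes named. No control of 15 min is described, so the heated cells also had less time in culture, and heat and time cannot be told apart. Each group had 2 libraries of total RNA, prepared by depleting ribosomal RNA, with no selection for poly(A) tails. Nothing in the labels says whether the 2 libraries of a group came from separate embryos, litters or cultures, so every p-value below measures only the spread between these libraries.

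When cells meet heat, the transcription factor HSF1 gathers into trimers and switches on chaperone genes, whose products hold and refold damaged proteins. In mammals the same minutes bring a wide arrest of new transcription and of splicing at many genes, and nuclear RNAs such as Malat1 respond to several kinds of stress. Protein synthesis is held back at initiation through phosphorylation of eIF2, which is the entry to the integrated stress response, and at elongation. Messenger RNAs of the replication-dependent histones have no poly(A) tail but end in a stem-loop, and they are removed quickly when DNA synthesis stops.

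The values are the authors' TPM-like signal per gene, where TPM is transcript abundance per length on a fixed total, with a further scaling per library. The column totals ran from 892768 to 1056383 over the libraries, which plain TPM would make equal, and sequencing depth is unknown. The columns carry the suffix s1 or s2, which is used below as a name only. Control s1 stood apart: 29309 genes reached a value of 1 there, and 19035 to 21796 did in each of the other 5. Over the 12002 genes the SD of the difference s1 minus s2 in log2(value + 1) was 0.47 at 15 min and 0.81 in control. Young neuron genes were high in all libraries. The 17 neuron markers, Tubb3, Map2 and Dcx among them, summed to 3013 and 3016 at 15 min and to 2227 and 2866 in control. The 11 markers of progenitors and radial glia, Sox2, Pax6 and Vim among them, summed to 3635 and 3077 at 15 min and to 2594 and 2863 in control. Both sums were higher in the 15 min libraries than in either control, and Vim alone, at 2200.0 and 2017 at 15 min and 1413 and 1786 in control, made up most of the progenitor sum. The 10 markers of microglia and macrophages summed to 15.5 and 18.2 at 15 min and to 26.3 and 18.5 in control, and the 6 of fibroblasts and meninges to 7.66 and 11.3 at 15 min and to 14.8 and 8.005 in control. The 9 erythroid markers summed to 274 and 317 at 15 min and to 368 and 513 in control, and 6 of 6 that passed the floor were lower at 15 min, with 2 not overlapping, beside 10.0% of all genes. In bulk RNA, fewer cells of a type and less RNA per cell cannot be told apart, and the part that these sums play in the results below was not tested.

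No gene passed the test at 15 min. limma, fitted to log2(value + 1) of all 6 libraries, called 0 of 21954 genes higher (0.0%) and 0 lower (0.0%) at a Benjamini-Hochberg adjusted p of 0.05, and the smallest adjusted p was 0.471. It called 7 genes after median-of-ratios scaling over genes above 0 in every library, 41 when control s1 was left out (2 up, 39 down) and 216 when control s2 was (17 up, 199 down), where the lone control library is assumed to vary like the other groups. At an unadjusted p under 0.05 there were 868 genes (3.95%), 459 higher (2.09%) and 409 lower (1.86%), and among the 12002 genes above the floor 583 (4.86%), 403 higher (3.36%) and 180 lower (1.5%). For a single gene, an exact permutation test of 2 libraries against 2 cannot go below a two-sided p of 0.333. What follows is therefore a description of values, and no gene below is called changed.

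A stricter description was used to name genes: a gene counted as higher where both 15 min values stood above both control values by at least 1.5 times on the value + 1 scale, and as lower in the mirror case. This held for 59 of 12002 genes in the higher direction (0.492%) and for 60 in the lower direction (0.5%). With no minimum size, groups failed to overlap for 2885 genes in the higher direction (24.0%) and 1205 in the lower direction (10.0%). The 15 min mean was above the control mean for 6986 of the 12002 genes (58.2%). At 2 times, 12 genes were higher (0.1%) and 25 lower (0.208%). At the boundary, Mtln with a smallest pairwise fold of 1.501 was the last gene inside on the higher side and Rrm2b with 1.499 the first outside, and Hist1h1d with 1.502 was the last inside on the lower side and Psd with 1.489 the first outside. The balance of the 2 sides moved with the scaling: median-of-ratios scaling over genes above 0 in every library shifted the median gene from 0.066 to 0.40 and gave 214 higher and 23 lower, the same scaling over the genes above the floor gave 36 higher and 82 lower, and rescaling without mitochondrial and small RNA genes gave 27 higher and 83 lower.

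Setting 15 min against each control library singly gave different genes for each. Against control s1, 810 genes stood at least 1.5 times higher (6.75%) and 1408 lower (11.7%). Against control s2, 1017 stood higher (8.47%) and 904 lower (7.53%). Only 145 genes were past that size above both (1.21%), which is 17.9% of the s1 list and 14.3% of the s2 list, and 128 were past it below both (1.07%), which is 9.09% of the s1 list and 14.2% of the s2 list. A further 52 genes were past it above control s1 and below control s2, and 62 the other way round. The median gene lay 0.16 above control s1 and 0.0042 above control s2 on the log2 scale, and 0.066 above their mean.

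**Figure D1:**
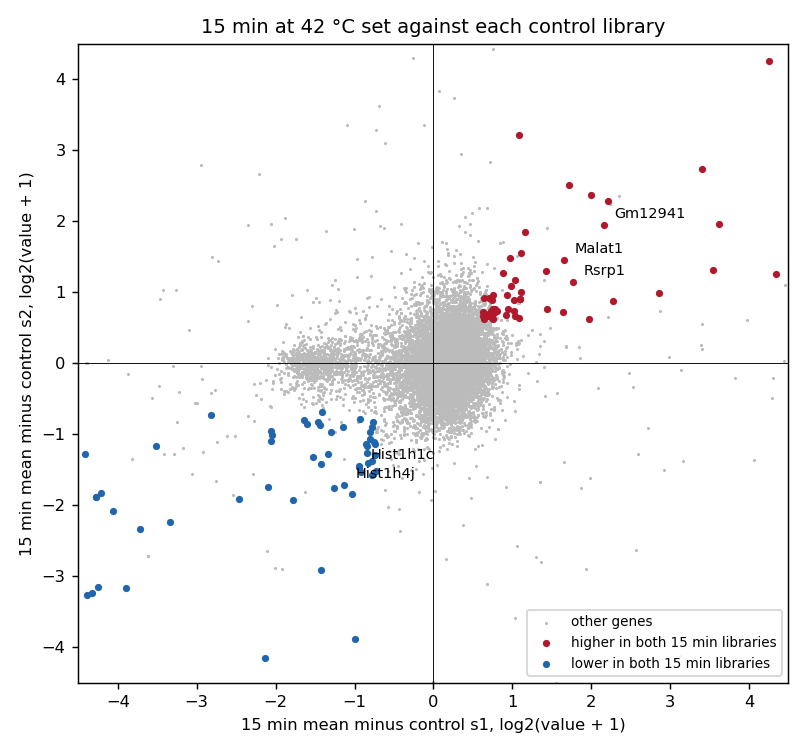
Each point is 1 of the 12002 genes, placed by the mean of the 15 min libraries minus control s1 on the horizontal axis and minus control s2 on the vertical axis, in log2(value + 1); 48 genes lie beyond the axes. The arm of grey points to the left of 0 on the horizontal axis and near 0 on the vertical axis holds genes that are high in control s1 alone, while the 59 red and 60 blue genes lie beyond both controls.

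Several classes of non-coding loci lay low against control s1 and close to control s2. Long non-coding RNA genes, 736 in all, had a median difference of −0.97 from control s1 and of −0.0034 from control s2. The 227 loci whose type is still to be experimentally established had −1.31 from control s1 and 0.017 from control s2. The 458 pseudogenes had −0.47 from control s1 and 0.080 from control s2. The 76 small and ribosomal RNA genes lay below both, with −0.68 from control s1 and −0.17 from control s2. The 10409 protein-coding genes had 0.19 from control s1 and 0.0026 from control s2. Of the 59 genes beyond both controls on the higher side, 30 were protein coding, 16 pseudogenes and 6 long non-coding. Of the 60 on the lower side, 18 were protein coding, 12 small or ribosomal RNAs, 10 pseudogenes and 8 long non-coding, and 11 had no entry in the annotation used.

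Among protein-coding genes, the 30 on the higher side had smallest pairwise folds from 1.501 to 3.25. Their median transcript length was 1983.5 bases, against 3573 bases for all protein-coding genes above the floor. It was 1595 bases for the protein-coding genes on the lower side, so short length was not particular to the higher side. Rsrp1, which encodes an arginine and serine rich protein, had 186 and 191 at 15 min, against 54.7 and 84.4 in control, a log2 difference of 1.46 ± 0.26 (SE, n = 2 each, limma adjusted p = 0.747). Both 15 min values were more than 2 times both control values. Plekhs1, a gene with a pleckstrin homology domain, was low throughout, at 6.93 and 12.04 at 15 min, against 2.10 and 0.783 in control. Mphosph8, a reader of methylated histone H3 in the HUSH silencing complex, had 65.1 and 42.0 at 15 min, against 23.7 and 25.5 in control. Gpatch11, which encodes a G-patch protein of the spliceosome, had 59.7 and 60.3 at 15 min, against 35.0 and 34.9 in control. For Gpatch11 the 2 libraries of each group nearly coincide, and the groups lie 0.76 ± 0.17 apart on the log2 scale.

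Sbds, needed to mature the large ribosomal subunit, had 77.1 and 69.6 at 15 min, against 43.0 and 42.7 in control. Smdt1, a subunit of the mitochondrial calcium uniporter, had 358 and 357 at 15 min, against 209 and 218 in control. Rpl38, a protein of the large ribosomal subunit, had 1503 and 1187 at 15 min, against 775 and 784 in control. In all 3 genes neither 15 min value reached down to a control value. Mycbp, which encodes a binding partner of Myc, had 46.6 and 47.4 at 15 min, against 23.9 and 27.2 in control. Cited1, a transcriptional coactivator gene, had 7.22 and 7.14 at 15 min, against 2.03 and 3.82 in control. Ift22, of intraflagellar transport, had 48.8 and 47.5 at 15 min, against 29.6 and 29.8 in control, and Morn2 had 15.3 and 14.2 at 15 min, against 8.03 and 8.45 in control.

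For some of the highest ranked genes the assignment of reads is uncertain or 1 library carries the value. Rpl10-ps3 had 293 and 312 at 15 min, against 154 and 108 in control, and Rps12-ps3 had 3819.9 and 3681 at 15 min, against 2235 and 2013 in control. Both are copies of ribosomal protein genes, and reads of copy and parent can be divided between them. Lars2, the mitochondrial leucyl-tRNA synthetase, had 159 and 51.2 at 15 min, against 18.7 and 17.8 in control. The 2 libraries at 15 min differed by more than the groups' nearest values did from each other. The locus ENSMUSG00000119584, which the files leave without a name, had 6278 and 454 at 15 min, against 159 and 253 in control, and it too was far higher in 15 min s1 than in s2. Gm10233 and Gm10171 carry the same values in every library, 53.1 and 49.4 at 15 min against 23.4 and 26.8 in control, and so count as 1 measurement.

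On the lower side, 12 of the 18 protein-coding genes were histone genes of the replication-dependent clusters. The other 6 were Gm10974, Anpep, Cacnb4, Elfn2, Ltbp3 and Notch4. Cacnb4, a beta subunit of voltage-gated calcium channels, had 3.60 and 3.33 at 15 min, against 11.1 and 7.11 in control. Elfn2, a postsynaptic leucine-rich repeat protein, had 5.86 and 6.03 at 15 min, against 11.1 and 12.6 in control. Ltbp3, which binds latent TGF-beta outside the cell, had 11.9 and 14.6 at 15 min, against 30.2 and 25.4 in control. In these 3 genes the control values were at least 1.5 times the 15 min values in every pairing. Notch4, a Notch receptor best known from blood vessels, had 5.13 and 3.65 at 15 min, against 9.13 and 8.21 in control. Anpep, a membrane aminopeptidase, had 1.063 and 0.754 at 15 min, against 20.7 and 3.24 in control, so its control mean rests on control s1. The 8 endothelial and mural markers summed to 15.5 and 20.3 at 15 min and to 28.0 and 23.9 in control, and their part in the Notch4 and Anpep values was not tested.

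**Figure D2:**
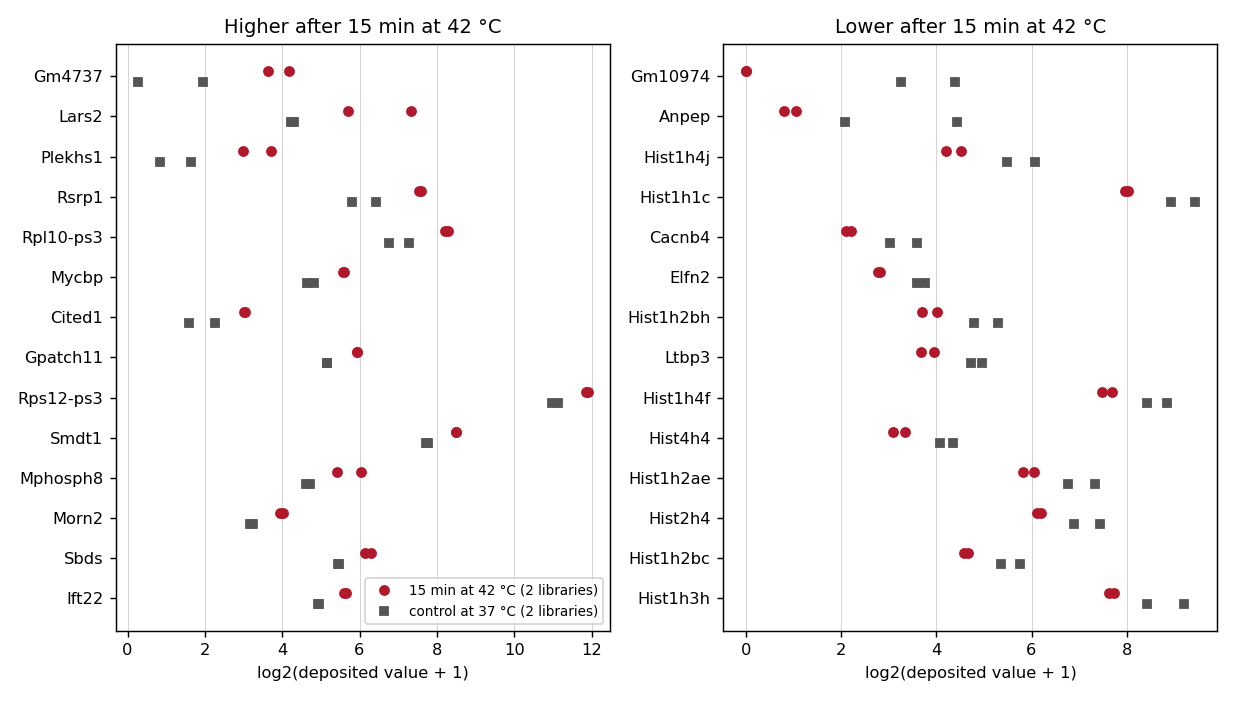
The 14 protein-coding genes ranked first in each direction by the smallest of the 4 pairwise differences, with log2(value + 1) on the horizontal axis; red circles are the 2 libraries at 15 min and grey squares the 2 control libraries. In every row the groups are apart, and Lars2, Anpep and Gm4737 show the widest spread within a group.

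Most replication-dependent histone messages are known to end in a stem-loop, and its letters are shown for 6 of the 12 lower histone genes. The letters searched were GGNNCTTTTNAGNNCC on the sense strand of each gene's annotated transcripts, and each site is shown with those letters in capitals and 5 bases on each side, on GRCm38 transcripts from GENCODE.
Hist1h4j: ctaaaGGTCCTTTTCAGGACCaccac
Hist1h1c: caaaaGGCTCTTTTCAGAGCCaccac
Hist1h2bh: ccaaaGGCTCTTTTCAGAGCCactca
Hist1h4f: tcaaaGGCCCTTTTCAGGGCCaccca
Hist4h4: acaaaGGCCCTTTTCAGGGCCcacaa
Hist2h4: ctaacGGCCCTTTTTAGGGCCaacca
The first 4 genes lie in the large cluster on chromosome 13, Hist4h4 lies on chromosome 6 and Hist2h4 on chromosome 3. Of the 60 histone-cluster genes above the floor, 42 hold the letters (70.0%), against 24 of 10349 other protein-coding genes above it (0.2319%) and 89 of 55450 annotated genes (0.1605%). Of the 12 at least 1.5 times lower, 9 hold them, and Hist1h3h does not. A match is a description of letters only.

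Histone-cluster genes lay below control as a group and in each of the 5 histone families. Of 67 such genes found by name, 60 were above the floor, with a median log2 difference of −0.68, against 0.066 for all 12002 genes. The median was −0.59 from control s1 and −0.90 from control s2, and ran from −0.92 to −0.33 over the alternative settings. Of the 60, 56 had a 15 min mean below the control mean. Without overlap, 40 lay on the lower side, beside 10.0% of all genes, and 2 on the higher side, beside 24.0%. At 1.5 times, 12 were lower, beside 0.5% of all genes, and 0 higher, beside 0.492%, and 0 passed limma's adjusted p. By family, 5 of 5 linker histone H1 genes, 15 of 17 H2A, 14 of 14 H2B, 11 of 11 H3 and 11 of 13 H4 genes were below control. Genes with the stem-loop letters were below in 39 of 42 cases with a median of −0.76, and those without in 17 of 18 with a median of −0.59.

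Hist1h4j, a histone H4 gene, had 22.0 and 17.5 at 15 min, against 44.0 and 66.5 in control, a log2 difference of −1.42 ± 0.26 (limma adjusted p = 0.747). Hist1h1c, a linker histone gene, had 247 and 259 at 15 min, against 486 and 690.0 in control, a difference of −1.19 ± 0.22. Hist1h3h, an H3 gene, had 197 and 213 at 15 min, against 340.3 and 588 in control. In all 3 the 15 min libraries lay close together and the control libraries far apart, with control s2 the higher. Control s2 was the higher control for all 12 histone genes at least 1.5 times lower. Hist1h2bh, an H2B gene, had 15.1 and 11.9 at 15 min, against 26.7 and 38.5 in control. Hist4h4 had 7.51 and 9.18 at 15 min, against 15.9 and 19.4 in control, and Hist2h4 had 72.0 and 68.2 at 15 min, against 118 and 173 in control. Summed over the 67 genes, histone-cluster RNA was 29367 and 21295 at 15 min, against 33591 and 39309 in control. The sums do not overlap.

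The 9 replacement histone genes whose messages carry poly(A) tails had a median log2 difference of 0.34, and from 0.082 to 0.68 over the alternative settings. The lowest came under quantile normalisation, where all genes had a median of 0.054. Of these, 7 did not overlap on the higher side, beside 24.0% of all genes. Their median mean value was 455, and all genes with a mean of 100 to 500 had a median log2 difference of 0.25. H3f3b, which encodes the replacement histone H3.3, had 1653 and 1373 at 15 min, against 1099 and 885 in control. H2afx, the DNA damage histone whose message can end in a stem-loop or a poly(A) tail, had 89.6 and 63.4 at 15 min, against 79.7 and 113 in control, and the groups overlap. Genes of DNA replication were not lower as a group: 19 of 23 were above the control mean, beside 58.2% of all genes. Their median was 0.13, which turns to −0.099 without 15 min s1. Of the 23, 0 lay without overlap on the higher side, beside 24.0% of all genes. On the lower side 1, Mcm10, lay without overlap, beside 10.0% of all genes. Pcna, the replication clamp, had 243 and 215 at 15 min, against 209 and 221 in control. Rrm2, of deoxynucleotide synthesis, had 124 and 80.6 at 15 min, against 83.3 and 89.6 in control. Slbp, the protein that binds the histone stem-loop, had 109 and 90.5 at 15 min, against 95.5 and 74.6 in control, and Npat, which drives histone gene transcription, had 11.3 and 11.1 at 15 min, against 11.2 and 12.6 in control. Pcna, Rrm2, Slbp and Npat overlap between groups.

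**Figure D3:**
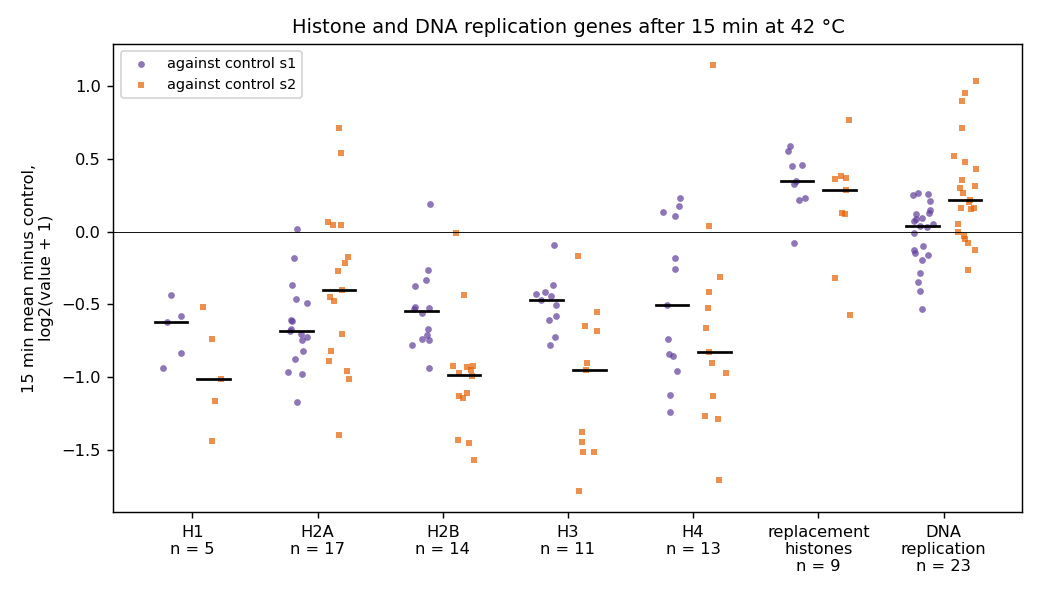
Each point is 1 gene, placed by its 15 min mean minus control s1 (purple circles) or control s2 (orange squares) in log2(value + 1), with the median as a bar, for the 5 histone families, 9 replacement histones and 23 DNA replication genes. The medians of the 5 families lie below 0 against both controls and those of the other 2 groups above 0.

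Chaperone genes above the floor were above control in small steps, with none at 1.5 times. Of 47 chaperones and co-chaperones, 41 were above the floor, with a median mean value of 152. Of these, 35 had a 15 min mean above the control mean. That held for 58.2% of all genes and for 84.3% of those with a mean of 100 to 500. Of the 41, 19 lay without overlap on the higher side, beside 24.0% of all genes. On the lower side 0 lay without overlap, beside 10.0% of all genes. Their median log2 difference was 0.28, with 0.36 from control s1 and 0.27 from control s2, and from 0.15 to 0.62 over the alternative settings. None passed limma's adjusted p. All 9 genes of the Hsp90 group and all 10 chaperonin genes were above the control mean, and so were 4 of 5 Hsp70 and Hsp110 genes, 6 of 7 Hsp40 genes and 2 of 3 small heat shock genes.

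Hspa8, the constitutive cytosolic Hsp70, had 1779 and 1576 at 15 min, against 1030.1 and 1149.6 in control, a log2 difference of 0.62 ± 0.21 (limma adjusted p = 0.747). Hsp90aa1, the inducible cytosolic Hsp90, had 1384 and 1055 at 15 min, against 932 and 819.5 in control. Hsph1, an Hsp110 that exchanges nucleotide for Hsp70, had 124 and 110.1 at 15 min, against 76.0 and 93.7 in control. In each of these 3 genes both 15 min values were above both control values. The inducible Hsp70 pair fell below the floor: Hspa1a had 4.92 and 2.87 at 15 min, against 2.59 and 1.53 in control, and Hspa1b had 6.18 and 4.25 at 15 min, against 1.82 and 2.00 in control. Hspa1b met the 1.5 times rule with a smallest pairwise fold of 1.75 on the value + 1 scale, and was left out by the floor alone. These are near-identical copies, and their sum was 9.10 ± 2.81 at 15 min and 3.97 ± 0.616 in control (SD, n = 2 each). At this level they were minor transcripts beside Hspa8. Dnajb1, the Hsp40 partner of inducible Hsp70, had 19.6 and 19.5 at 15 min, against 12.8 and 20.7 in control. Hspb1, a small heat shock protein, had 6.98 and 7.41 at 15 min, against 5.56 and 10.7 in control, and Hsf1 itself had 21.5 and 25.7 at 15 min, against 22.8 and 32.3 in control. The groups overlap for Dnajb1, Hspb1 and Hsf1.

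After an hour the order among chaperones was different. Hspa1a stood at 2.59 and 1.53 in control, 4.92 and 2.87 at 15 min and 794 and 713 at 60 min. Hspb1 stood at 5.56 and 10.7 in control, 6.98 and 7.41 at 15 min and 62.0 and 61.4 at 60 min. Hsph1 stood at 76.0 and 93.7 in control, 124 and 110.1 at 15 min and 396 and 469.6 at 60 min. Most of the distance between control and 60 min in these genes therefore lay after the 15 min sample.

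Promoters with an array of the letters that HSF1 is known to bind are shown for 2 chaperone genes that lay above both controls. A link between the letters and the 15 min values was not tested. The letters searched were 3 alternating units, GAANNTTCNNGAA or TTCNNGAANNTTC, on both strands, overlapping matches included, in RefSeq promoter windows of GRCm38.p6 around each start. Matches are in capitals, on the strand of the gene.
Hsph1, chr5:149636287-149636586, minus strand: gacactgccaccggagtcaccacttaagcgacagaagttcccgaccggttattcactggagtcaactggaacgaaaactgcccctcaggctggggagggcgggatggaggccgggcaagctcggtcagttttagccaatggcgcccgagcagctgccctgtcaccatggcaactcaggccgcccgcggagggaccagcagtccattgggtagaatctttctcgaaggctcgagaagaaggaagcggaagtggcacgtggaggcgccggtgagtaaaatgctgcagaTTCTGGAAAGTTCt
Hspe1, chr1:55087898-55088197, plus strand: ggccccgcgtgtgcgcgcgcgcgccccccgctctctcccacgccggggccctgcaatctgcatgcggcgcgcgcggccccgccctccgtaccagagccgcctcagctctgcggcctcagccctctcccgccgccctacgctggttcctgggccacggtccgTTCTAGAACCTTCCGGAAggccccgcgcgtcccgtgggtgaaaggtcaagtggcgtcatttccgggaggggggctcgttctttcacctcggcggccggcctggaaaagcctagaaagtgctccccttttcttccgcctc
The match of Hsph1 begins 36 bases after the start used for its window, and the 2 overlapping matches of Hspe1 lie before its start. The letters were in the windows of 5 of 35 chaperone genes above the floor that have a window (14.3%), Hsph1, Dnajb6, Chordc1, Hspd1 and Hspe1, and in 179 of 27025 genes in all (0.662%). The windows of Hspa1a, Hspa1b, Dnajb1 and Hspb1 held no exact match, and Hspa8 and Hsp90aa1 had no window. Imperfect copies of the letters, and copies outside the windows, were not searched, so a window without a match does not show that HSF1 sites are absent. Hspe1, the mitochondrial co-chaperonin, had 283 and 235 at 15 min, against 177 and 202 in control. Hspd1, the chaperonin that shares its promoter with Hspe1, had 393 and 258 at 15 min, against 293 and 201 in control, and the groups overlap. Of the protein-coding genes at least 1.5 times higher, 0 of 24 with a window held the letters.

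A few RNAs were high at 15 min and back at 60 min. Of the 59 genes at least 1.5 times higher at 15 min, 6 had come back by at least 1.5 times from both 15 min values at 60 min, and 1, Gm10616, had gone further by that size. For 43 of the 59, both 60 min values were still above both controls. Malat1, an abundant long non-coding RNA of nuclear speckles, stood at 1149.6 and 1317 in control, 3873 and 3371 at 15 min and 1347 and 1485 at 60 min. Its log2 difference between 15 min and control was 1.55 ± 0.22 (limma adjusted p = 0.623). Rsrp1 stood at 54.7 and 84.4 in control, 186 and 191 at 15 min and 71.3 and 94.2 at 60 min. For both, the 15 min libraries lay apart from all 4 others, which the rule for these 6 requires. Mir17hg, the host transcript of the miR-17-92 cluster, stood at 4.64 and 5.16 in control, 10.6 and 10.4 at 15 min and 2.17 and 2.00 at 60 min, and so ended below control. Zfp948, a zinc finger gene, stood at 10.7 and 10.9 in control, 19.0 and 17.7 at 15 min and 8.88 and 10.7 at 60 min. Plekhs1 and 6330418K02Rik had the same shape at low values.

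Other loci stayed above both controls at 60 min. Gm12941, a pseudogene, stood at 6.89 and 8.13 in control, 34.2 and 34.2 at 15 min and 27.3 and 35.3 at 60 min, with a log2 difference of 2.05 ± 0.21 between 15 min and control (limma adjusted p = 0.471, a smallest value it shares with Snora31). Gm10616, a locus of no settled type, stood at 1.503 and 0.921 in control, 9.29 and 8.67 at 15 min and 86.0 and 55.3 at 60 min. Supt4b, listed as a pseudogene, stood at 101 and 91.2 in control, 198 and 218 at 15 min and 159.5 and 162 at 60 min. For these 3 all heated libraries were above both controls. Of the 60 genes lower at 15 min, 8 had come back and 2, Hist1h1c and Snora57, had gone further by the same measure. Hist1h1c stood at 486 and 690.0 in control, 247 and 259 at 15 min and 143 and 129 at 60 min. The comparisons of 15 min and of 60 min with control share their control libraries.

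**Figure D4:**
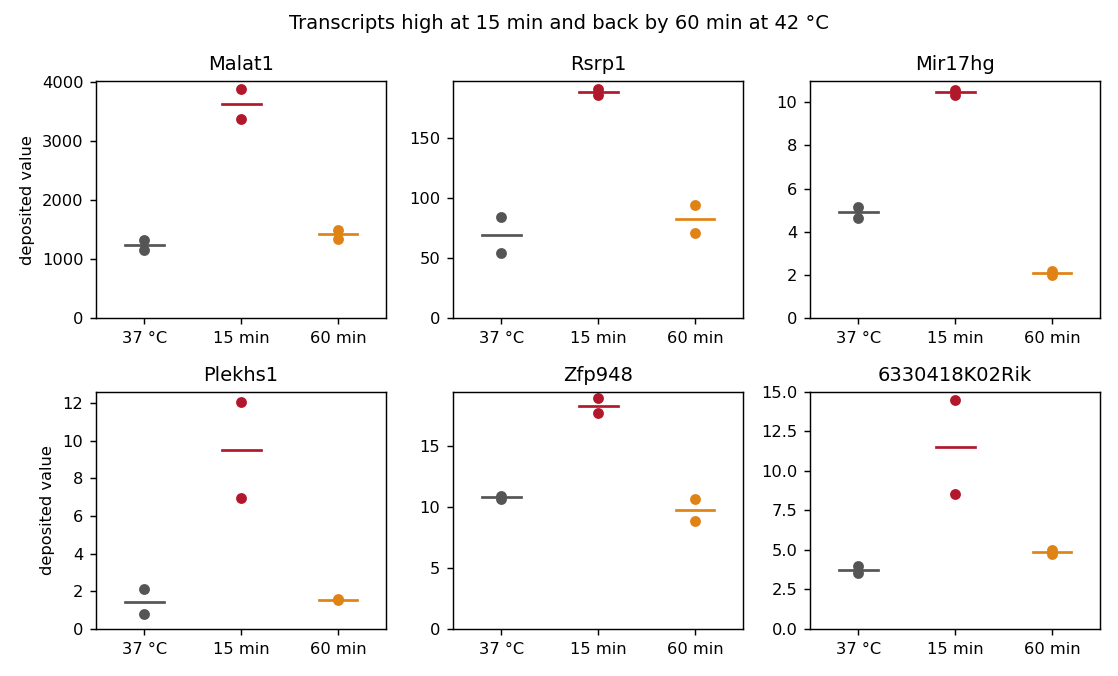
Deposited values on a linear axis from 0 for the 6 RNAs that were at least 1.5 times higher at 15 min and had come back by 60 min, with points for the 2 libraries of each group and bars for their means. The rule that picked the 6 requires their 15 min libraries to lie above all others.

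Other nuclear RNAs did not share the Malat1 pattern. Of 14 nuclear long non-coding RNAs above the floor, 8 were above the control mean, with a median of 0.043, and Malat1 alone was past 1.5 times. Neat1, which builds paraspeckles, had 6.64 and 6.77 at 15 min, against 6.88 and 6.07 in control. Miat, a neuronal nuclear RNA, had 88.7 and 75.7 at 15 min, against 71.4 and 123 in control, and Meg3 had 19.7 and 24.5 at 15 min, against 26.6 and 33.7 in control. Rmst, an RNA of neurogenesis, had 171 and 182 at 15 min, against 120.2 and 144 in control. Neat1 and Miat overlap between groups, Meg3 lies below control and Rmst above it.

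Splicing genes were above control in modest steps. Of 10 genes for kinases of the CLK, SRPK and DYRK families, which act on splicing factors, 9 were above the control mean, with a median of 0.27 (0.081 to 0.61 over the alternative settings), and 4 did not overlap on the higher side, beside 24.0% of all genes. Clk1 and Clk4, kinases of SR proteins whose own introns are spliced on heat and stress, were among the 4. Clk1 had 109.9 and 89.8 at 15 min, against 63.4 and 67.1 in control, and Clk4 had 105 and 96.6 at 15 min, against 66.4 and 70.7 in control. Of 29 SR and hnRNP genes, 26 were above the control mean, beside 58.2% of all genes and 84.3% of those with a mean of 100 to 500. Of the 29, 15 did not overlap on the higher side, beside 24.0% of all genes, and 0 on the lower, beside 10.0%. Their median was 0.30 (0.044 to 0.64 over the alternative settings). The lowest, 0.044, came under quantile normalisation, where the median of all genes was 0.054. Without 15 min s1 the medians were 0.12 for SR and hnRNP genes and 0.081 for the kinases, against 0.042 for all genes. At 15 min the s2 library was the higher for 3 of the 29 and 1 of the 10, beside 5699 of all 12002 genes. Ptbp2, the neuronal polypyrimidine tract protein, had 661 and 574 at 15 min, against 401 and 395 in control. The values are sums over a gene's transcripts, so spliced and intron-holding forms are not separated. The 2 cold-inducible RNA-binding genes were also not lower: Cirbp had 294 and 229 at 15 min, against 175 and 168 in control, and Rbm3 had 279 and 252 at 15 min, against 206 and 266 in control.

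Genes of the translation machinery and of respiration were above control together. All 11 translation elongation genes above the floor were above the control mean, 9 without overlap, beside 24.0% of all genes, with a median of 0.39 (0.14 to 0.74 over the alternative settings). Of 80 cytosolic ribosomal protein genes, 71 were above it, 41 without overlap on the higher side, beside 24.0% of all genes, and 0 on the lower, with a median of 0.34, which was 0.46 from control s1 and 0.18 from control s2 and ran from 0.079 to 0.68 over the alternative settings. Of 34 nuclear genes of oxidative phosphorylation, 33 were above the control mean and 21 did not overlap, beside 24.0% of all genes, with a median of 0.34 (0.15 to 0.68 over the alternative settings). Under quantile normalisation the medians were 0.14 for elongation genes, 0.079 for ribosomal protein genes and 0.15 for oxidative phosphorylation genes, against 0.054 for all genes. No gene of these 3 lists passed limma's adjusted p. Eef1a1, the factor that brings aminoacyl-tRNA to the ribosome, had 6422 and 5288 at 15 min, against 4275 and 3787 in control. Eef2, the translocation factor, had 1344 and 1381 at 15 min, against 949 and 1329 in control, so its distance rests on control s1. Eef2k, the kinase that inhibits Eef2, had 51.6 and 35.8 at 15 min, against 32.9 and 25.2 in control. Uqcrb, of respiratory complex III, had 239 and 198 at 15 min, against 142 and 136 in control. Of the 13 genes encoded by the mitochondrial genome, 12 were below the control mean, 2 of the 13 without overlap on the lower side, beside 10.0% of all genes. Their median was −0.47 from control s1 and 0.21 from control s2, where the nuclear genes had 0.44 and 0.28. All 13 were higher in control s1 than in control s2, so their distance from the nuclear genes rests on control s1.

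The difference also went with how abundant a gene was. The median log2 difference was −0.16 for 2441 genes with a mean of 5 to 10, −0.011 for 10 to 20, 0.084 for 20 to 50, 0.16 for 50 to 100, 0.25 for 1475 genes with 100 to 500, and 0.37 for 249 genes at 500 or more. Against control s2 alone the same medians were −0.039 at 5 to 10 and 0.32 at 500 or more. The median mean value was 726 for ribosomal protein genes, 361 for SR and hnRNP genes, 341 for elongation genes, 152 for chaperones and 130.3 for oxidative phosphorylation genes, against 25.3 for all 12002 genes. The share of genes above the control mean was 32.6% at a mean of 5 to 10, 84.3% at 100 to 500 and 81.5% at 500 or more. The medians of these lists, and their counts above control, are thus to be read beside those of abundant genes. Their excess over genes of like abundance was not tested. Actb, a cytoskeletal gene often taken as a steady one, had 6875 and 6227 at 15 min, against 4479.9 and 5158 in control. Histone-cluster genes, with a median mean value of 308, had a median of −0.68, against 0.25 for all genes with a mean of 100 to 500. By transcript length the median for protein-coding genes was 0.16 in the shortest of 3 equal groups, 0.091 in the middle and 0.028 in the longest. Of 591 single-exon genes, 10 were at least 1.5 times lower, and without histone genes 0 of 534 were.

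**Figure D5:**
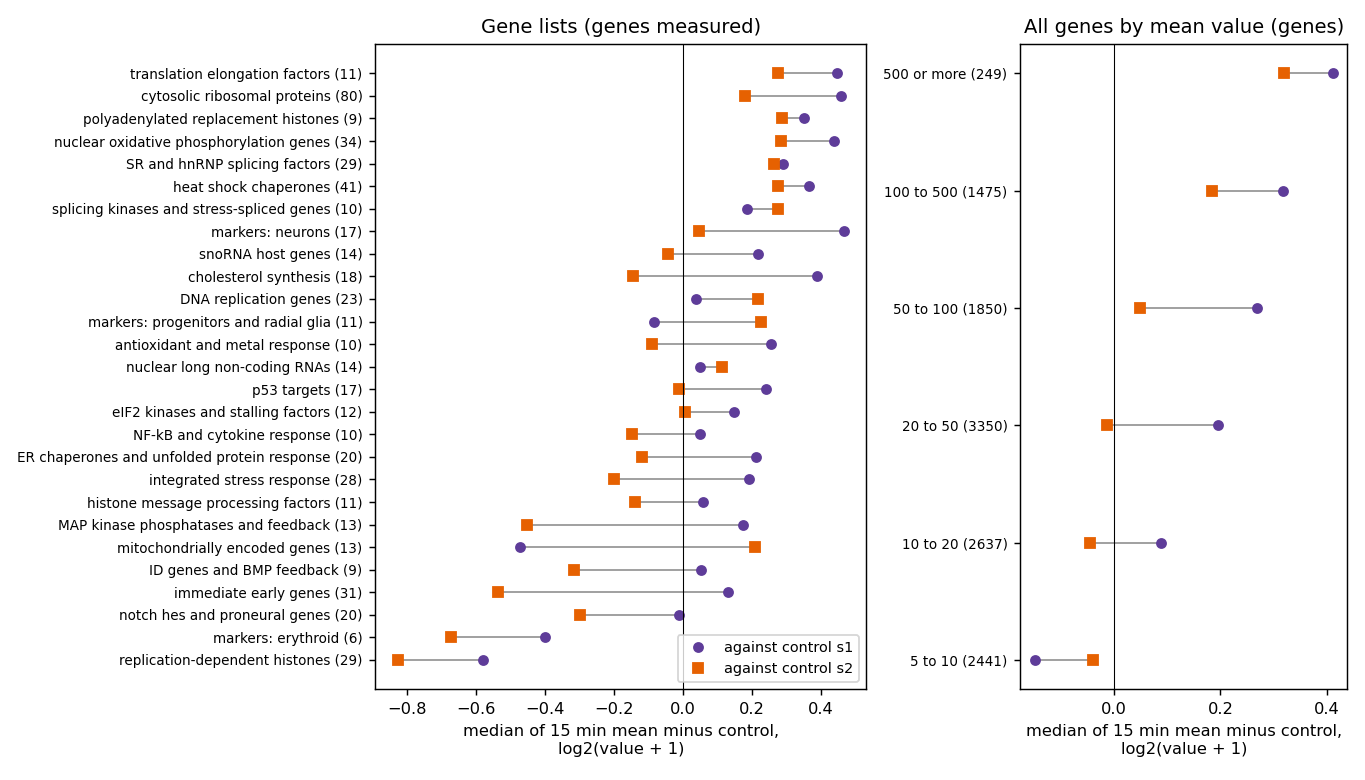
The left panel gives the median over each gene list, and the right panel the median over all genes in 6 ranges of mean value, of the 15 min mean minus control s1 (purple circles) and minus control s2 (orange squares) in log2(value + 1); the number of genes is in brackets. Replication-dependent histones have the lowest medians of the lists shown, and genes with a mean of 500 or more have medians of 0.41 and 0.32.

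Immediate early genes, which many stimuli switch on within minutes, were not higher at 15 min. Of 31 above the floor, 6 were above the control mean and 25 below, 1 not overlapping on the higher side, beside 24.0% of all genes, and 2 on the lower, beside 10.0%. Their median was −0.16, but 0.13 from control s1, −0.54 from control s2 and 0.18 under median-of-ratios scaling over genes above 0 in every library. Under that scaling the median of all genes was 0.40. Fos had 23.1 and 45.6 at 15 min, against 23.4 and 55.9 in control. Jun had 76.1 and 85.6 at 15 min, against 69.0 and 118 in control, and Egr1 had 28.1 and 41.8 at 15 min, against 34.6 and 60.1 in control. All 3 are early transcription factors, and for each the s2 library was the higher in both groups. That held for 25 of the 31 genes (80.6%), against 34.8% of all 12002. Egr3, which lies downstream of Egr1, had 2.89 and 5.21 at 15 min, against 6.97 and 8.16 in control, and Btg2, an antiproliferative gene of neurogenic progenitors, had 35.2 and 34.0 at 15 min, against 38.8 and 43.6 in control. These 2 were the members on the lower side without overlap. Myc was the member on the higher side, with 30.5 and 28.0 at 15 min, against 23.8 and 23.4 in control.

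Genes of the integrated stress response showed no common direction. Of 28, 14 were above the control mean and 14 below, 6 not overlapping on the higher side and 2 on the lower, which is near the 24.0% and 10.0% of all genes, with a median of −0.021. Atf4, its central transcription factor, had 354 and 458 at 15 min, against 299 and 521 in control. Ddit3, the CHOP factor downstream of Atf4, had 81.2 and 109 at 15 min, against 98.8 and 125 in control. Ppp1r15a, which brings the phosphatase back to eIF2, had 21.2 and 26.1 at 15 min, against 18.9 and 32.2 in control. All 3 overlap between groups. Cebpg, a dimer partner of Atf4, had 165 and 180.2 at 15 min, against 124 and 134 in control, and Trib3, an Atf4 target, had 13.04 and 19.7 at 15 min, against 19.7 and 47.2 in control. Of 12 eIF2 kinases and stalling factors, 6 were above the control mean and 6 below. Of these 12, 3 did not overlap on the higher side and 1 on the lower, beside 24.0% and 10.0% of all genes. Eif2ak4, the kinase GCN2, had 13.5 and 13.9 at 15 min, against 18.4 and 17.9 in control. The 20 genes of the unfolded protein response in the endoplasmic reticulum had a median of −0.0042, with 10 above and 10 below.

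Targets of p53 and of NF-kB were also split. Of 17 p53 targets, 10 were above the control mean and 7 below, with a median of 0.025, and 4 did not overlap on the higher side and 2 on the lower, beside 24.0% and 10.0% of all genes. Bbc3, the apoptosis gene Puma, had 12.02 and 14.2 at 15 min, against 20.4 and 24.1 in control, a log2 difference of −0.72 ± 0.23 (limma adjusted p = 0.747). Of 10 genes of the NF-kB response, 5 were above and 5 below, and 3 did not overlap on the lower side, beside 10.0% of all genes, and 0 on the higher. Nfkbiz, a nuclear regulator of NF-kB, had 4.25 and 5.49 at 15 min, against 7.97 and 9.65 in control. Both genes lay below control in all pairings.

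Of the 60 genes at least 1.5 times lower, 15 were at 0 in both 15 min libraries, and 6 of these are small or ribosomal RNAs. Snora31, a box H/ACA small nucleolar RNA, was listed at 0 in both 15 min libraries, against 19.1 and 8.38 in control, and at 0 in both 60 min libraries. Snord118, the U8 small nucleolar RNA, was listed at 0 in both 15 min libraries, against 18.0 and 7.86 in control. Snhg9, a snoRNA host gene, was listed at 0 in both 15 min libraries, against 32.6 and 3.40 in control. In all 15 genes control s1 was above control s2, and all 15 passed the floor through the control libraries alone. Snora43 ran the other way, with 25.8 and 44.8 at 15 min, against 0 and 9.93 in control. Of 14 snoRNA host genes above the floor, 10 were above the control mean, with a median of 0.22 from control s1 and of −0.044 from control s2. Gas5, a host of many snoRNAs, had 652 and 425 at 15 min, against 417 and 298 in control. Small RNAs are short, so few reads decide such values, and a listing at 0 gives no fold.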

How the data were processed

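Total RNA of 6 libraries was quantified by the authors, and 4 are compared here. kallisto and sleuth were used with build GRCm39, per the submitters' processing notes; versions, annotation and use of strand are not given in the sources used, so overlapping and antisense genes were taken as not separable. The authors deposited 1 normalised signal per gene and library, named TPM, whose column totals differ between libraries. It is not a read count, depth is unknown, and no interval that needs depth was computed. A plain TPM had been assumed when the tests were planned; the values were used as deposited. Columns name a group and a suffix but no sample, so they were assigned to groups only.

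Values were taken as log2(value + 1), which understates the change of low genes. The test was limma 3.58.1 (R 4.3.3) on all 6 libraries, with no term besides group and with a mean-variance trend. It took the 21954 genes whose mean over the 6 reached 1; p-values are two-sided and were adjusted after Benjamini and Hochberg over these genes, with a threshold of 0.05. The fit has 3 residual degrees of freedom, and it was checked on simulated data. Gene lists were described by counts and medians, without a test. Symbols came from a table of Ensembl IDs, which named 52028 of 55538, and classes, lengths, exons and stem-loop letters from GENCODE on GRCm38, a build other than the authors'; its symbols include older histone names. Promoters are RefSeq windows of GRCm38.p6.

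The genes and lists were chosen with earlier results of these data known. Named were the first 14 protein-coding and 6 other genes per direction by the smallest of the 4 pairwise differences, up to 3 per direction in each list, the 10 smallest p and a set list of stress and translation genes, of which not all are printed; a named gene of a described list is not reported here. Outside that rule, after values were seen, were Zfp948, Mir17hg, 6330418K02Rik, Hspd1, Hspe1, Dnajb6, Chordc1, Slbp, Pcna, Rrm2, Npat, ENSMUSG00000119584, Gm10233, Gm10171, Cirbp, Rbm3, Notch4 and H2afx. The lists of replacement histones, DNA replication and histone message processing genes were added after the table was seen. Alternatives are pseudocounts, filters, scalings, model options, a suffix block and leaving out each library.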

Additional observations from a re-analysis of the deposited data

Results flagged for a closer look

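For 4 genes, 3 described above and Hes6 described under the other observations, both 15 min libraries lay above both controls and both 60 min libraries below both. The direction relative to control thus differed between the times. How many of all genes above the floor share this pattern is not given here, and 24.0% of them lay above both controls at 15 min. Mir17hg stood at 4.64 and 5.16 in control, 10.6 and 10.4 at 15 min and 2.17 and 2.00 at 60 min, which puts 60 min 1.89 log2 units below 15 min (difference −1.89, limma adjusted p = 0.110). Hes6 stood at 82.6 and 100.4 in control, 125 and 117 at 15 min and 71.9 and 53.8 at 60 min, a difference of −0.95 (limma adjusted p = 0.501). Zfp948 stood at 10.7 and 10.9 in control, 19.0 and 17.7 at 15 min and 8.88 and 10.7 at 60 min, a difference of −0.85 (limma adjusted p = 0.501). Its higher 60 min value and its lower control value are equal as rounded. Myc stood at 23.8 and 23.4 in control, 30.5 and 28.0 at 15 min and 19.3 and 18.7 at 60 min, a difference of −0.60 (limma adjusted p = 0.641). Neither time passed limma's test against control for any of the 4, and the direct contrast of 60 min with 15 min did not pass either. No group had 4 or more libraries, so single libraries were not tested as outliers.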

How the results depend on the processing

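With 2 libraries per group and unknown depth, only large and repeatable differences can be called, and control s1 decides much of what is found. The number of genes past limma's adjusted p was 0 as deposited and under both pseudocounts, rescaling without mitochondrial and small RNA genes, quantile normalisation, median-of-ratios scaling over genes above the floor (chosen after seeing the data), all filters, a fit of the 4 libraries compared, no trend, robust estimation and an adjusted p of 0.1; it was 7 under median-of-ratios scaling over genes above 0 and 0 to 216 when single libraries were left out. Snora31 was among the genes called under that scaling and without either control library.

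The counts of genes at least 1.5 times higher and lower without overlap, 59 and 60, became 36 and 39 with a pseudocount of 5, 214 and 23 under median-of-ratios scaling over genes above 0, 36 higher under the same scaling over genes above the floor and 27 higher without mitochondrial and small RNA genes. They were 112 and 229 with a floor of 1, 32 and 19 with a floor of 20, and 12 and 25 at a fold of 2. Leaving out single libraries gave 121 to 473 higher and 168 to 1219 lower. Against control s1 singly, 114 genes were higher at a fold of 2 and 322 lower with a floor of 20; against control s2 singly, 241 were higher and 196 lower at a fold of 2, and 453 lower with a floor of 20. The cause of these moves was not tested, apart from the smaller number of genes or larger fold that some settings bring.

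Over the alternatives, 273 medians of gene lists moved by less than the spread between libraries, 58 by more, and 3 are counted as changed in sign. The count of 3 takes only medians that were larger than this spread as deposited. ID genes and BMP feedback went to 0.19 under median-of-ratios scaling over genes above 0 and ran from −0.32 to 0.052 with single libraries left out. The snoRNA host genes ran from −0.044 to 0.28 with single libraries left out. Smaller medians also changed sign and are counted in the 273 or the 58. Among them, mitochondrially encoded genes went from −0.15 to 0.21 and cholesterol genes from 0.13 to −0.14 without control s1. Notch and proneural genes went from −0.20 to 0.14 under median-of-ratios scaling over genes above 0. Among named genes, none of which is called, the log2 difference turned under median-of-ratios scaling over genes above 0 for Btg2 (0.093), Hspb1 (0.19), Hsf1 (0.13), Fos (0.18), Jun (0.18), Ddit3 (0.099), Ppp1r15a (0.26), Miat (0.15), Npat (0.23) and H2afx (0.015). That scaling moved the median of all genes from 0.066 to 0.40, and each of these genes, like the list of ID genes, stayed below it. It turned under quantile normalisation for Hspb1 (0.17), Atf4 (−0.20), Eef2 (−0.061), Pcna (−0.14), Npat (0.054) and Rbm3 (−0.051). Over genes above the floor it turned for Atf4 (−0.060) and Neat1 (−0.032), and without mitochondrial and small RNA genes for Atf4 (−0.097), Neat1 (−0.063) and Pcna (−0.032). With single libraries left out, it ran from −0.076 to 0.57 for Dnajb1, −0.51 to 0.32 for Hspb1, −0.44 to 0.042 for Hsf1, −0.76 to 0.46 for Fos, −0.54 to 0.22 for Jun, −0.37 to 0.43 for Atf4, −0.44 to 0.30 for Ppp1r15a, −0.033 to 0.12 for Neat1, −0.58 to 0.20 for Miat, −0.099 to 0.51 for Rrm2, −0.16 to 0.0016 for Npat and −0.0062 to 0.36 for Rbm3.

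The labels do not say that equal suffixes are paired, and with 2 numbers the data cannot settle it. Over the 12002 genes the difference s1 minus s2 correlated at 0.23 between 15 min and control, 0.46 between 15 and 60 min and 0.24 between control and 60 min. With a replicate block by suffix, limma called 0 genes, and 1878 had an unadjusted p under 0.05, 1355 higher and 523 lower, against 868 without the block.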

Other observations

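Genes that hold neural progenitors and newborn neurons apart were mostly below control at 15 min, by little. Of 20 genes of the Notch pathway and of proneural factors above the floor, 15 were below the control mean, 5 did not overlap on the lower side and 2 on the higher side, beside 10.0% and 24.0% of all genes. Their median log2 difference was −0.20, with −0.012 from control s1 and −0.30 from control s2. Neurog1, a proneural factor that starts neuron formation, had 10.51 and 14.2 at 15 min, against 17.7 and 26.3 in control. Hes6, which works against Hes1, had 125 and 117 at 15 min, against 82.6 and 100.4 in control. Neurog1 lies below and Hes6 above control in all pairings. Of 9 ID genes and feedback genes of BMP signalling, 6 were below the control mean, 3 did not overlap on the lower side and 1 on the higher, beside 10.0% and 24.0% of all genes, and the median was −0.15, with 0.052 from control s1 and −0.32 from control s2. Gas1, a membrane co-receptor of Hedgehog signalling, had 91.0 and 76.3 at 15 min, against 110.0 and 118 in control, and Smad7, an inhibitor of TGF-beta signalling, had 11.8 and 11.2 at 15 min, against 13.8 and 21.7 in control.

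Cholesterol synthesis genes lay between the controls. Of 18, 15 were above the control mean, beside 58.2% of all genes, yet the median was 0.39 from control s1 and −0.14 from control s2. For 11 of them both 15 min values lay between the 2 control values, beside 3304 of all 12002 genes. All 18 were higher in control s2 than in control s1, beside 7051 of all 12002 genes. Of 10 genes of the antioxidant and metal response, 6 were above the control mean, beside 58.2% of all genes, with a median of 0.075. Of 13 genes for MAP kinase phosphatases and feedback, 8 were below it, beside 5016 of all 12002 genes, with a median of −0.14. No gene of these lists passed limma's adjusted p.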
